A study of Mus musculus with 12 samples.

Results

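Metallothioneins are small cysteine-rich proteins that bind zinc and copper, and together with zinc transporters and a zinc-sensing transcription factor they set how much free zinc a cell holds. The group described here has 7 genes: the metallothioneins Mt1, Mt2 and Mt3, the transcription factor gene Mtf1, the exporter gene Slc30a1 and the importer genes Slc39a8 and Slc39a14. They were chosen by name, with earlier results of these data known. Every probe set that the platform's table gives to one of them alone was used. This gave 17 probe sets of 45037 tested, for 7 of the 18193 genes with a probe set of their own.

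The samples were 12 pieces of brown fat, each from a male ob/ob mouse aged 3 months and kept on normal chow, with 1 array per mouse. All animals carried the ob/ob mutation, which removes working leptin and causes obesity, so no lean animal is part of the comparison. A group of 6 mice received a single injection into the abdominal cavity of an agonistic antibody to FGFR1, a receptor for fibroblast growth factors, at 1 mg/kg. The other 6 were pair-fed, meaning that their food was matched to that of the treated animals, and received control IgG, whose dose the labels do not give. Tissue was taken on day 4. Values are log2 expression as deposited, and differences are anti-FGFR1 minus control IgG, with the standard error (SE) of limma's moderated test. A probe set is called changed at a Benjamini-Hochberg adjusted p under 0.05 over all 45037.

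As background, zinc that enters the cytosol is bound by metallothioneins, and rising free zinc makes MTF-1, the product of Mtf1, bind metal response elements in promoters. Mt1, Mt2 and Slc30a1 are textbook targets of MTF-1. Glucocorticoids, inflammatory signals and oxidants are also known to induce Mt1 and Mt2, which are the widely expressed members, whereas Mt3 is best known from the brain. In fat, as in liver, metallothioneins are counted among the stress-responsive genes. In cells generally, SLC30 (ZnT) proteins move zinc out of the cytosol and SLC39 (ZIP) proteins move it in.

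The tissue label was checked against 12 brown adipocyte markers, of which 11 had a probe set of their own. All 11 were brighter than the median probe set. Their mean per array was 12.56 ± 0.12 in controls against 12.69 ± 0.07 in treated mice (mean ± SD, n = 6 each, exact permutation p = 0.0238, adjusted over 11 marker lists 0.0524). Of the 11, Elovl3 was called higher (0.76 ± 0.19 (SE), limma adjusted p = 0.0274) and the other 10 were not called. Skeletal muscle transcripts varied widely between arrays, with a list mean from 9.66 to 11.89 in controls and from 7.04 to 11.73 after anti-FGFR1, and control IgG replicate 6 and anti-FGFR1 replicate 5 were the lowest of their groups. The means of the macrophage, granulocyte and mast cell, fibroblast and preadipocyte, nerve and Schwann cell, red blood cell and skeletal muscle lists did not pass (adjusted exact permutation p from 0.109 to 0.565), although single markers were called. Endothelial, smooth muscle, B cell and T cell lists are given beside the metallothioneins.

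Mt1 and Mt2 transcripts fell after anti-FGFR1, by 21.0% and 30.1%. On the bright probe set of Mt1 and on that of Mt2, every array of the treated group lay below every control array, whereas a second, dim Mt1 probe set did not differ detectably. None of the other 5 genes passed the test. Of the 17 probe sets, 2 fell and 0 rose (limma), with 4 at an unadjusted p under 0.05. Over all probe sets 5.32% were called: 3.66% fell and 1.66% rose. No filter on low values was applied, so all 17 were tested, although 7 of them were dimmer than the median probe set. The median difference of the 17 was -0.03, against 0.0057 over all probe sets.

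Induction of Mt1 and Mt2 by metal is known to be set in their promoters. The stretch from 250 bases before to 50 bases after the start site is therefore shown for both, 5′ to 3′. Whether metal or MTF-1 had a part in their fall was not tested. That of Mt3, which lies in the same cluster on chromosome 8, and that of Slc30a1, the MTF-1 target that exports zinc, are shown for comparison. Capitals mark matches on either strand to TGCACNC or TGCGCNC, the core of the metal response element (MRE). The sequences are RefSeq's, on the build GRCm38.p6 and the plus strand, from chr8:94178839-94179138 (Mt1), chr8:94172368-94172667 (Mt2), chr8:94152357-94152656 (Mt3) and chr1:191906531-191906830 (Slc30a1).
Mt1: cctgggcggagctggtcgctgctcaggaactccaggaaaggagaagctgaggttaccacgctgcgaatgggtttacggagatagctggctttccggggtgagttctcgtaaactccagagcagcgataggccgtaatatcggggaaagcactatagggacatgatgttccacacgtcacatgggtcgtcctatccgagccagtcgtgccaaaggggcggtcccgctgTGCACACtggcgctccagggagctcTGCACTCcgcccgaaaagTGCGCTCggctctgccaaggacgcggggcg
Mt2: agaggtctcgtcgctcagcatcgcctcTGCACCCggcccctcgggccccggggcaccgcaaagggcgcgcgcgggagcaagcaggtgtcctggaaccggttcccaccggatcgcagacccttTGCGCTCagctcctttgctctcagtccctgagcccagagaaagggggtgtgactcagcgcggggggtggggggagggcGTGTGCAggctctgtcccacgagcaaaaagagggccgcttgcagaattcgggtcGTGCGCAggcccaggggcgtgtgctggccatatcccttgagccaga
Mt3: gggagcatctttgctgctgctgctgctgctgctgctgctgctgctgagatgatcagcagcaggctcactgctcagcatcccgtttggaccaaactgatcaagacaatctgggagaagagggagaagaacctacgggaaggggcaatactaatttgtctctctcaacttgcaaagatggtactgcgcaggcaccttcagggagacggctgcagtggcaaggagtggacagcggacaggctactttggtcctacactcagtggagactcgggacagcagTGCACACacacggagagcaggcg
Slc30a1: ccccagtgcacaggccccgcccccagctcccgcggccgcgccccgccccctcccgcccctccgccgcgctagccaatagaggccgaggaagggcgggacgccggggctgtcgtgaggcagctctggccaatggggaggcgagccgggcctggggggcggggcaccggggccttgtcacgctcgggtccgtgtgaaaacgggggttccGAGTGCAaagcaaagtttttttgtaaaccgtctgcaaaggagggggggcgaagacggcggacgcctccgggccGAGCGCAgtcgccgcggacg

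The Mt1 window held 3 MRE matches, all on the forward strand and beginning 23 bases before and at bases 3 and 21 after the start site that the window uses. RefSeq's record of the Mt1 gene begins 206 bases before that site (84 for Slc30a1, 0 for Mt2 and Mt3, and 8397 or more for Slc39a8), so the counts and positions hold for these windows only, and another start site would give a different window. The Mt2 window held 4, of which 2 were on each strand. Of 32851 promoter windows of the same length, 1.97% held 3 or more and 0.517% held 4 or more. Slc30a1 had 2 matches, a number reached by 7.11% of windows, and Mt3 had 1, which 25.7% reached. The Mtf1 window had 0 matches, and of the 2 windows of Slc39a8 the second had 1. A second motif, TGACNNNGC, the core of the antioxidant response element (ARE), was found in 1 copy each in the windows of Mt2 and Slc30a1 and in the first window of Slc39a8, against 12.4% of all windows with at least 1. No ARE match overlapped an MRE match. Windows were found for 6 of the 7 genes, without Slc39a14. These matches describe letters in the reference and not measured binding, and the windows of Mt1 (60.7%) and Mt2 (67.7%) were richer in G and C than the median window (52.7%).

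**Figure D1:**
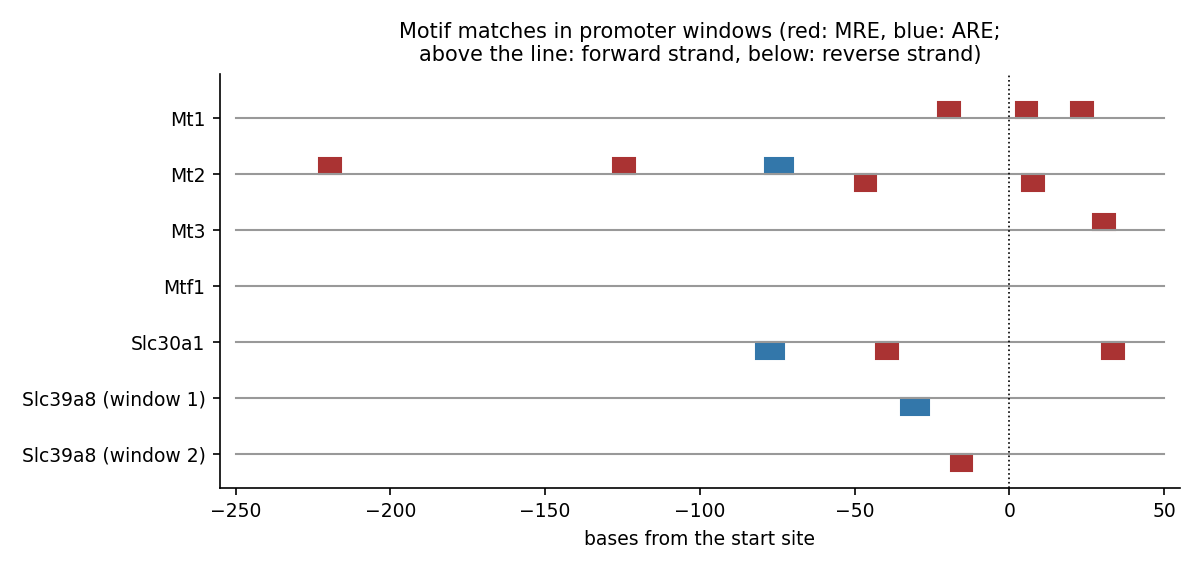
Positions of MRE core matches (red) and ARE core matches (blue) in 7 promoter windows of 6 genes, in bases from the start site, with forward-strand matches above each line and reverse-strand matches below it. The 3 MRE matches of Mt1 begin between base -23 and base 21, and the 4 of Mt2 between base -223 and base 5; for Mt1 these depend on the start site chosen, since its RefSeq gene record begins 206 bases earlier.

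Mt1 encodes the metallothionein that is usually measured as the marker of metal induction. Its bright probe set, 1422557_s_at, read 13.40, 13.54, 13.46, 13.24, 13.53 and 13.50 in control IgG replicates 1 to 6 and 13.06, 13.13, 13.10, 13.02, 13.12 and 13.19 in anti-FGFR1 replicates 1 to 6. The groups did not overlap, and the treated arrays were packed more closely than the controls. The means were 13.44 ± 0.11 and 13.10 ± 0.06 (SD, n = 6 each), a fall of 1.27-fold. The log2 difference was -0.34 ± 0.06 (SE), with a 95% interval from -0.46 to -0.22 and a limma adjusted p of 0.0025.

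This probe set is among the brightest on the array, with 278 probe sets brighter on average. The suffix _s_at is the manufacturer's mark for probes that can match more than 1 transcript, so signal from another metallothionein cannot be told apart from that of Mt1 here. A second Mt1 probe set, 1451612_at, was dimmer than the median probe set. It read from 6.62 to 7.08 in controls and from 6.70 to 7.13 after anti-FGFR1, and its difference of 0.04 ± 0.09 did not pass (limma adjusted p = 0.867; 95% interval -0.16 to 0.24). The 2 Mt1 probe sets thus disagreed, and with the mean of both in place of the brighter one Mt1 lost its call (-0.15 ± 0.05, limma adjusted p = 0.0658).

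Mt2 is the neighbour of Mt1 and is induced by the same signals. Its probe set 1428942_at read 12.07, 12.46, 12.21, 12.02, 12.49 and 12.24 in control IgG replicates 1 to 6. In anti-FGFR1 replicates 1 to 6 it read 11.63, 11.76, 11.61, 11.65, 11.80 and 11.93. Again no treated array reached a control array, and the gap between the groups, from 11.93 to 12.02, was narrow beside the spread among controls. The means were 12.25 ± 0.19 and 11.73 ± 0.12 (SD, n = 6 each), a fall of 1.43-fold, with a log2 difference of -0.52 ± 0.09 (SE), a 95% interval from -0.70 to -0.34 and a limma adjusted p of 0.0023.

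Groups that did not overlap were found for 2 of the 17 probe sets, these of Mt1 and Mt2, against 3.90% of all probe sets (2.82% with the treated arrays lower and 1.08% with them higher). Among the 1068 probe sets at least as bright as that of Mt2, 56 fell (5.24%) and 35 rose. A difference as low as that of Mt1 was reached by 22 of these 1068, and 1 as low as that of Mt2 by 6, each count including the genes themselves. The difference on the Mt2 probe set was larger than on the bright Mt1 probe set: the log2 value of Mt1 minus that of Mt2 within an array went from 1.20 ± 0.11 in controls to 1.37 ± 0.08 in treated mice (SD, n = 6 each). The change of 0.18 had a two-sided exact permutation p of 0.0130, with 4 of 6 treated arrays above all controls. It compares probe sets: a response that differs between probe sets, as for one so bright or one that can match several transcripts, and a difference between the genes cannot be told apart. Both calls were kept when any of the 12 arrays was left out, at -0.32 to -0.38 for Mt1 and -0.47 to -0.56 for Mt2.

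**Figure D2:**
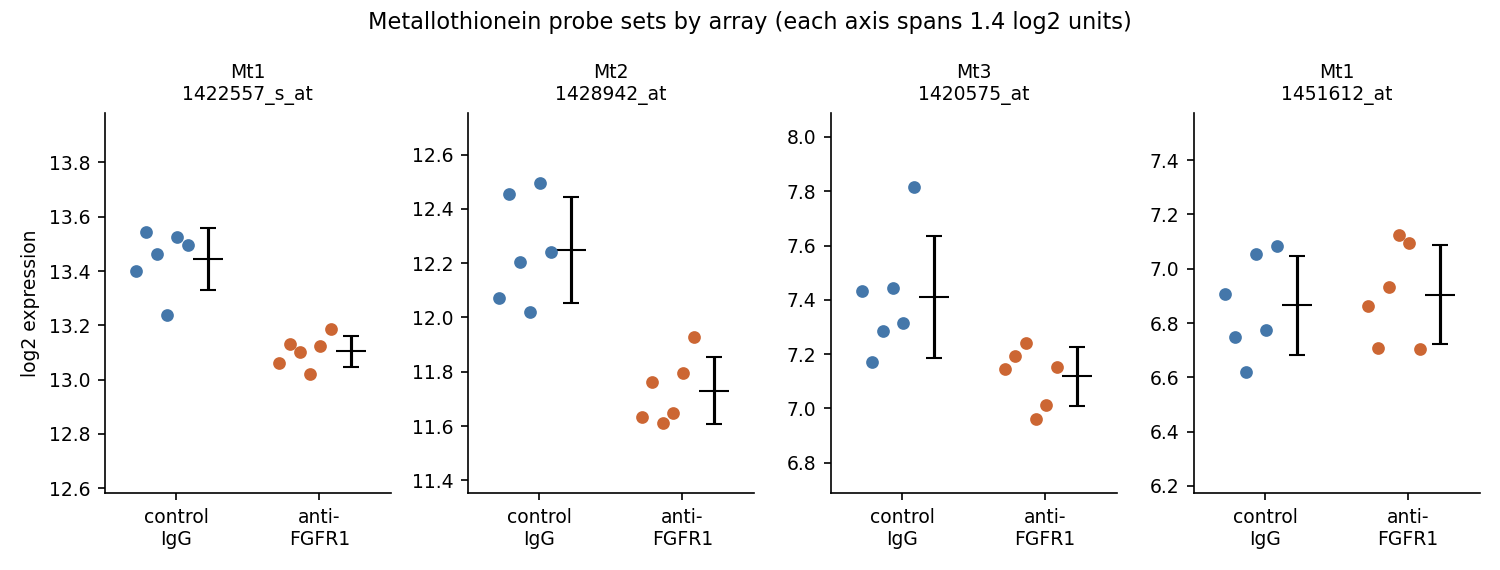
Log2 expression of the 4 probe sets of Mt1, Mt2 and Mt3 on each array, as points for 6 control IgG and 6 anti-FGFR1 arrays, with the group mean and SD as a bar; each axis spans 1.4 log2 units. The groups are apart for the bright Mt1 probe set and for Mt2, overlap for Mt3, and lie at the same height for the dim Mt1 probe set.

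Within the groups Mt1 and Mt2 also went together from mouse to mouse. With the group means removed, Pearson's r was 0.85 over 12 arrays (permutation within groups, p = 0.00051, adjusted over 7 pairs of member genes 0.0036) and Spearman's rho was 0.88 (permutation p = 0.00099, adjusted 0.0069). It was 0.86 among controls and 0.84 among treated arrays, and 0.91 without the 2 arrays farthest from the median of Mt1. Control IgG replicates 2 and 5 were the highest of all arrays in both genes, and control IgG replicate 4 was the lowest control in both. The skeletal muscle list mean was also highest among controls on replicates 2 and 5 (11.81 and 11.89), and was 10.57 on replicate 4. Control IgG replicate 6, with Mt2 at 12.24, was lower still in muscle (9.66). Anti-FGFR1 replicate 5, with Mt2 at 11.80, was the lowest of all (7.04). A part of muscle content in the shared variation was not tested. The Mt1 and Mt2 values come from the same array, and probes that match both transcripts would raise r. The other 6 pairs, of Mt1 or Mt2 with Mt3, Slc30a1 or Mtf1 on their brightest probe sets, had r between -0.30 and 0.29 over the same 12 arrays and did not pass (adjusted permutation p of 0.956 for each r).

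**Figure D3:**
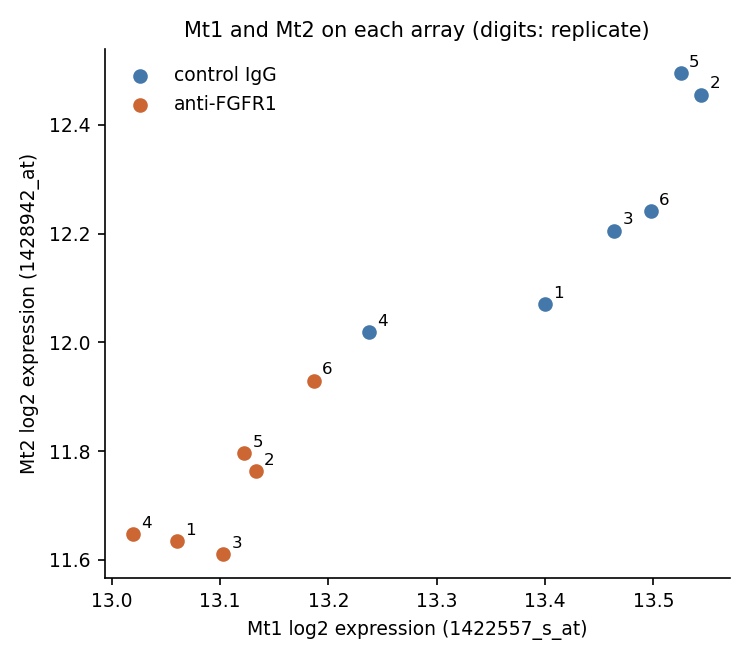
Log2 expression of Mt2 (1428942_at) against that of Mt1 (1422557_s_at), with 1 point per array labelled by replicate, for 6 control IgG and 6 anti-FGFR1 arrays. The arrays run along a line within each group, and every anti-FGFR1 array lies below and to the left of every control array.

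Mt3, the brain-enriched metallothionein, was dim here, at about the median brightness of all probe sets. Its probe set 1420575_at read 7.43, 7.17, 7.29, 7.44, 7.31 and 7.82 in control IgG replicates 1 to 6 and 7.14, 7.20, 7.24, 6.96, 7.01 and 7.15 in anti-FGFR1 replicates 1 to 6. The groups overlapped, with 4 of 6 treated arrays below all controls and control IgG replicate 6 the highest. The difference of -0.29 ± 0.09 did not pass (limma adjusted p = 0.0763; 95% interval -0.49 to -0.10). It passed without control IgG replicate 2 (-0.34, limma adjusted p = 0.0448), with the macrophage list as covariate (-0.38, limma adjusted p = 0.0323) and among probe sets brighter than the median (limma adjusted p = 0.0487). Mt4, a metallothionein known from stratified epithelium, read from 3.95 to 4.50 over all arrays, near the bottom of the array's range, and differed by 0.0067 ± 0.08.

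Mtf1, whose protein senses zinc and switches on Mt1 and Mt2, was measured by 5 probe sets, and none passed. All 5 differences were small, from 0.0075 to 0.08 (limma adjusted p from 0.521 to 0.961). Their 95% intervals together ran from -0.12 to 0.23. The brightest, 1428979_at, read from 8.14 to 8.53 in controls, with control IgG replicate 1 apart from the rest, and from 8.38 to 8.54 after anti-FGFR1, so the groups overlapped.

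Slc30a1 encodes ZnT1, the zinc exporter of the plasma membrane. Its brighter probe set 1436164_at read from 9.26 to 9.65 in controls and from 9.29 to 9.55 after anti-FGFR1, a difference of -0.07 ± 0.08 (limma adjusted p = 0.688). The second, 1422786_at, had a median of 8.08 and a highest value of 8.22 in controls, and ran from 7.79 to 8.08 with a median of 7.98 after anti-FGFR1. With 4 of 6 treated arrays below all controls it differed by -0.13 ± 0.06, which did not pass (limma adjusted p = 0.230; 95% interval -0.25 to -0.0068). Both intervals lay above the point estimate of Mt1, -0.34, but both overlapped the Mt1 interval, -0.46 to -0.22. A difference between Slc30a1 and Mt1 was not tested.

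The importers Slc39a8 (ZIP8) and Slc39a14 (ZIP14), which also carry manganese and iron, gave no call either. Slc39a8 was dim on its 2 probe sets, at -0.03 ± 0.09 on 1416832_at and -0.23 ± 0.11 on 1448482_at (limma adjusted p = 0.911 and 0.267). The second read from 5.77 to 6.56 in controls and from 5.75 to 6.03 after anti-FGFR1, and its interval, from -0.46 to 0.0041, leaves a change of the size seen in Mt1 undetermined. Slc39a14 had 4 probe sets with differences from -0.11 to 0.04 (limma adjusted p from 0.330 to 0.934) and intervals within -0.24 to 0.20. Its brightest, 1425649_at, read from 8.80 to 9.20 in controls and from 8.91 to 9.12 after anti-FGFR1. The groups overlapped on every probe set of both genes.

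**Figure D4:**
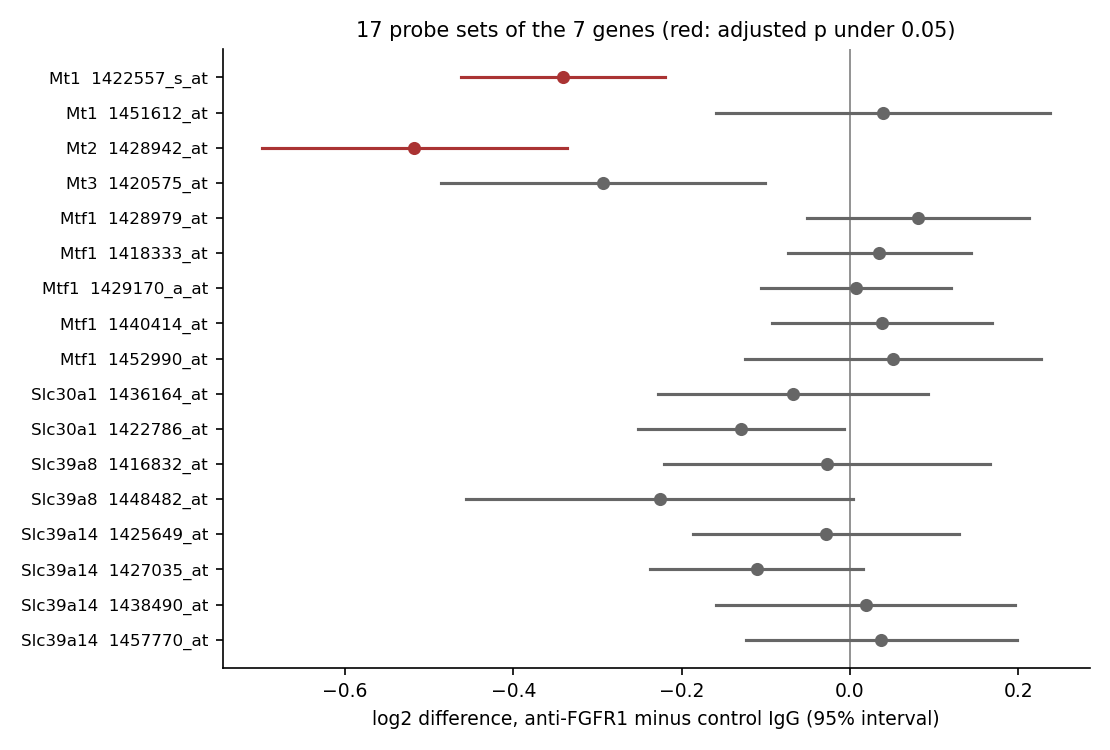
Log2 difference, anti-FGFR1 minus control IgG, with its 95% interval for the 17 probe sets of the 7 genes, in red where the adjusted p is under 0.05. The bright probe sets of Mt1 (-0.34) and Mt2 (-0.52) stand below 0, and the intervals of all probe sets of Mtf1 and Slc39a14 cross 0.

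In the wider families of zinc transporters, lists that hold 3 of the 7 genes, 1 of 24 genes was called on its brightest probe set. That was Slc39a10, which encodes the plasma membrane importer ZIP10. Over all genes taken the same way, 4.24% fell and 2.32% rose, so the families' share was near the background. Of the 10 SLC30 genes 0 rose and 0 fell (limma, 0 at an unadjusted p under 0.05), with a median of -0.01 against 0.0091 over all genes. The smallest p belonged to Slc30a5, a transporter of the secretory pathway (-0.11 ± 0.05, limma adjusted p = 0.268), Slc30a9 (0.06) and Slc30a3 (0.05). Of the 14 SLC39 genes 1 fell and 0 rose (limma, 1 at an unadjusted p under 0.05), with a median of -0.01. Slc39a11 (-0.13) and Slc39a4 (0.10) did not pass, but Slc39a11 passed with the macrophage list as covariate (-0.24, limma adjusted p = 0.0361).

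Slc39a10 read 8.43, 8.54, 8.63, 8.72, 8.51 and 8.86 in control IgG replicates 1 to 6 on probe set 1433751_at. In anti-FGFR1 replicates 1 to 6 it read 8.19, 8.28, 8.42, 8.40, 8.45 and 8.13. The groups met at 1 point, where anti-FGFR1 replicate 5 lay above control IgG replicate 1. The difference was -0.30 ± 0.08 (limma adjusted p = 0.0345), and its dimmer probe set 1439041_at was at -0.23 ± 0.10 (limma adjusted p = 0.212, not called). The call was lost without any of 6 arrays, control IgG replicates 3, 4 and 6 and anti-FGFR1 replicates 1, 2 and 6 (-0.25 to -0.30, limma adjusted p from 0.0641 to 0.0797), and with the covariate for RNA quality described next (-0.24, limma adjusted p = 0.281). The call was also lost with the mean of the gene's probe sets (-0.27, limma adjusted p = 0.0696). The same held without the 2 arrays lowest in muscle markers (-0.28, limma adjusted p = 0.0566). It held too with the smooth muscle and pericyte mean as a covariate (-0.32, limma adjusted p = 0.843). With the endothelial mean as a covariate the difference was 0.012 and had turned direction.

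**Figure D5:**
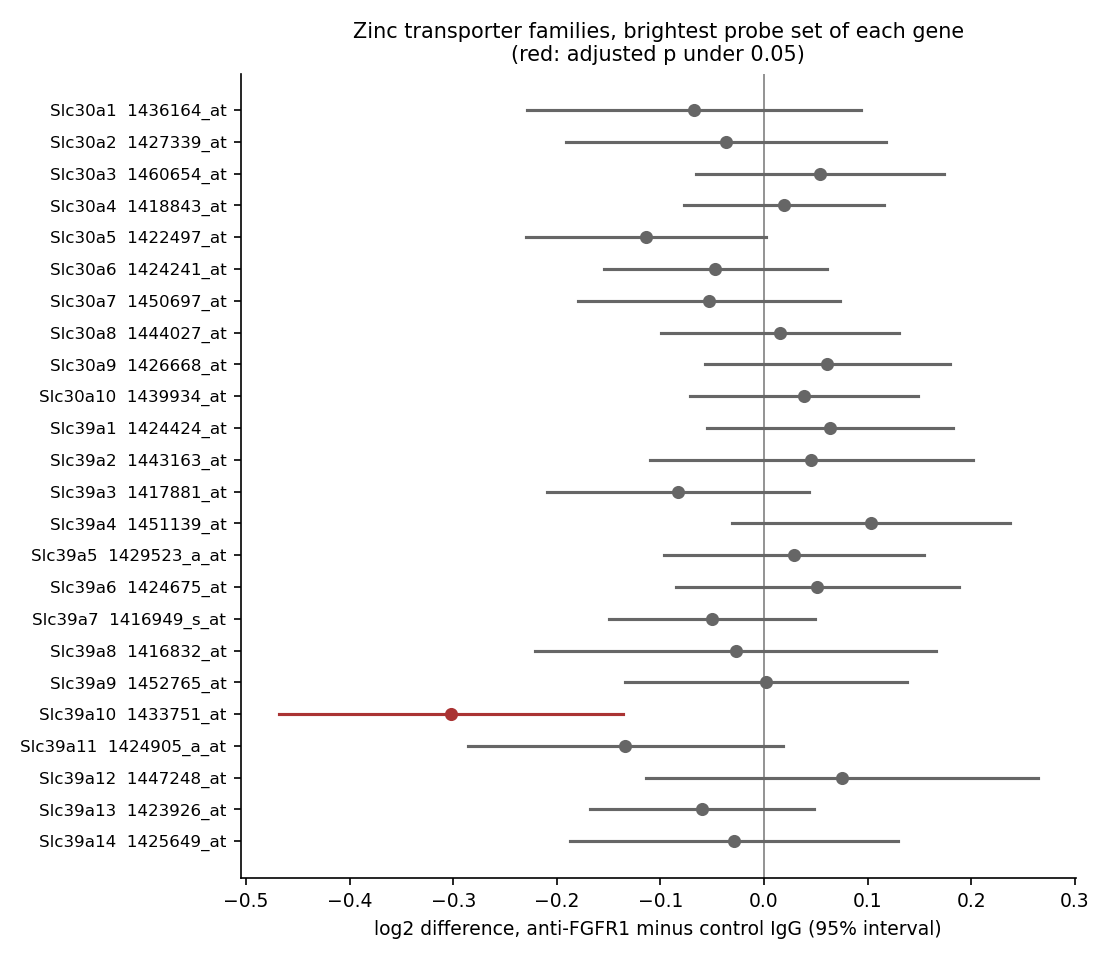
Log2 difference, anti-FGFR1 minus control IgG, with its 95% interval for the brightest probe set of 10 SLC30 and 14 SLC39 genes, in red where the adjusted p is under 0.05. Slc39a10 is the red point, at -0.30, and the other 23 intervals cross 0.

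Several measures of the samples moved with the fall of Mt1 and Mt2. The 3′ minus 5′ log2 signal of control probe sets, a measure of RNA integrity, was taken as the mean of Actb and Gapdh. It was 0.161 ± 0.031 in controls against 0.203 ± 0.027 in treated mice (SD, n = 6 each, exact permutation p = 0.0368). Taken apart, Actb differed by 0.069 (exact permutation p = 0.0433) and Gapdh by 0.014 (exact permutation p = 0.506). With the mean of both as a covariate Mt1 and Mt2 kept their calls, at -0.34 ± 0.07 and -0.45 ± 0.11 (limma adjusted p = 0.0301 and 0.0471). With the macrophage mean as a covariate they were at -0.36 and -0.52, and with the skeletal muscle mean at -0.33 and -0.50, called in both fits. In bulk tissue, fewer cells of a type and less RNA per cell cannot be told apart.

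Of 12 endothelial markers 7 fell and 0 rose (median -0.28), with a mean per array from 9.59 to 9.83 in controls and from 9.33 to 9.55 after anti-FGFR1. Of 10 smooth muscle and pericyte markers 6 fell and 0 rose (median -0.27), with means from 9.62 to 9.79 and from 9.33 to 9.53. Both list means had an exact permutation p of 0.0022, the smallest that 6 against 6 allows, and 0.0079 adjusted. None of the 12 and 1 of the 10 was dimmer than the median probe set. With the endothelial mean as a covariate, Mt1 was at -0.28 ± 0.11 and Mt2 at -0.44 ± 0.16, and neither passed (limma adjusted p = 0.303 and 0.280). With the smooth muscle and pericyte mean they were at -0.17 ± 0.12 and -0.26 ± 0.18 (limma adjusted p = 0.896 and 0.889). Neither list mean overlapped between the groups, so the level of these markers and the treatment cannot be told apart; in these fits 250 and 4 of 45037 probe sets were called. The B cell mean was higher after anti-FGFR1, from 6.66 to 6.97 against 6.56 to 6.64 in controls (exact permutation p = 0.0022, adjusted 0.0079), with 2 of 8 markers called higher and 6 of 8 dimmer than the median probe set. The T cell mean was higher by 0.11 (exact permutation p = 0.0173, adjusted 0.0476), with 0 of 8 markers called by limma, 2 at an unadjusted p under 0.05 and 5 dimmer than the median probe set. Among the lists whose means did not pass, 3 of 10 fibroblast and preadipocyte markers rose (Lum 0.76, Pdgfra 0.62, Fap 0.60) and 2 fell (Pi16 -0.50, Dpt -0.37). Of 14 macrophage markers 2 rose (Adgre1 0.63, Csf1r 0.37), and all 14 differences were above 0. Of 11 granulocyte and mast cell markers 2 rose (Cma1, Cpa3) and 1 fell (Kit), of 6 nerve and Schwann cell markers 1 rose (S100b) and 1 fell (Mbp), and of 4 red blood cell markers 1 fell (Alas2). The part of fibroblasts, B and T cells and these other cells in the fall of Mt1 and Mt2 was not tested, apart from the macrophage and skeletal muscle covariates above.

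Genes of pathways whose signals are known to induce Mt1 and Mt2 are given as 3 lists. The lists hold receptors, ligands and regulators as well as target genes, so their counts are not counts of targets alone. Over all genes taken by their brightest probe set, 4.24% fell and 2.32% rose, with a median difference of 0.0091. Every treated array lay below every control array on 2.82% of all probe sets. Of 15 genes of the glucocorticoid response, 1 rose and 2 fell (5 at an unadjusted p under 0.05), with a median of -0.03. Fkbp5, a co-chaperone of the glucocorticoid receptor and a sensitive target of it, was lower by a log2 difference of -0.38 ± 0.07 (limma adjusted p = 0.0054), with every treated array below every control. Cdkn1a, the cell cycle inhibitor p21, fell too (-0.34 ± 0.09, limma adjusted p = 0.0375), and 7 of the 15 genes were above 0 and 8 below. The rise was that of Lcn2, lipocalin 2, at 1.71 ± 0.18, which is also in the next list.

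Of 15 acute-phase and IL6-STAT3 genes, 1 rose and 2 fell (8 at an unadjusted p under 0.05), with a median of -0.04. Stat3, the transcription factor through which IL6 acts, fell (-0.30 ± 0.05, limma adjusted p = 0.0023) with no overlap between groups, and its receptor subunit gene Il6st fell as well (-0.23 ± 0.05, limma adjusted p = 0.0240). Of 14 oxidative stress genes, 0 rose and 1 fell (limma, 2 at an unadjusted p under 0.05), with a median of -0.02. Gclc, the catalytic subunit of glutamate-cysteine ligase, which makes the glutathione precursor, fell (-0.28 ± 0.06, limma adjusted p = 0.0169), while Cat, catalase (0.15), and Gclm (-0.14), next by p, did not pass; Cat passed without anti-FGFR1 replicate 6 (0.20, limma adjusted p = 0.0483). After adjustment for the 3′ to 5′ measure, Fkbp5 (-0.34), Cdkn1a (-0.29), Stat3 (-0.24), Il6st (-0.18) and Gclc (-0.23) lost their calls. Cdkn1a lost its call without any of 8 arrays (-0.28 to -0.35), control IgG replicates 3, 4, 5 and 6 and anti-FGFR1 replicates 1, 3, 4 and 6. Il6st lost it without any of 6 (-0.21 to -0.22), control IgG replicates 2, 4 and 6 and anti-FGFR1 replicates 1, 2 and 6. With the endothelial covariate all 5 lost their calls too, at -0.24 for Fkbp5, -0.20 for Cdkn1a, -0.17 for Stat3, -0.06 for Il6st and -0.19 for Gclc. None of the 5 was called with the smooth muscle and pericyte covariate (-0.21 to -0.39), nor was Lcn2 (2.04).

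Of the genes that handle other metals, 2 of 13 measured iron genes were called, 1 higher and 1 lower, against 6.56% of all genes taken by their brightest probe set. A further 4 had an unadjusted p under 0.05, and the median was 0.04 against 0.0091 over all genes. Cp, ceruloplasmin, a copper protein that oxidises iron, rose by 0.48 ± 0.07 (limma adjusted p = 0.0011), and Slc25a37, mitoferrin 1, which takes iron into mitochondria, fell (-0.30 ± 0.07, limma adjusted p = 0.0245). Slc25a37 lost its call without anti-FGFR1 replicate 1, 4 or 5 (-0.26 to -0.29), with the 3′ to 5′ covariate (-0.27) and with the endothelial (-0.07) and smooth muscle and pericyte (-0.09) covariates; Cp lost it with the last of these (0.41). Steap3, a ferrireductase, was at 0.21 ± 0.06 and just missed the threshold (limma adjusted p = 0.0520); it passed in 8 of the alternatives, among them without control IgG replicate 6 (0.24, limma adjusted p = 0.0183). Of 10 copper genes 0 rose and 0 fell (limma, 2 at an unadjusted p under 0.05), with a median of 0.03. Slc31a2 (-0.17) and Sco1 (0.18) had the smallest p. With the macrophage list as covariate both passed (-0.23 and 0.26, limma adjusted p = 0.0356 and 0.0277). Slc31a2 also passed without control IgG replicate 1 (-0.21, limma adjusted p = 0.0321).

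Over 12 arrays and with the group means removed, 19487 single-gene probe sets brighter than the median probe set were searched. The genes sought were those whose values followed Mt1 or Mt2 most closely from mouse to mouse. For Mt1 they were Incenp, a chromosomal passenger protein (Pearson's r = 0.93), Paics, an enzyme of purine synthesis (0.92), Bcl3, a co-regulator of NF-kappaB (0.87), C920021L13Rik (0.86) and Oaf (0.86). Spearman's rho ran from 0.70 to 0.88. For Mt2 they were Gart, also of purine synthesis (0.88), Appbp2os (0.88), Ajm1 (0.87), Bin1 (0.86) and Iqgap3 (0.85), with rho from 0.78 to 0.86. Without the 2 arrays farthest from the median, r fell to between 0.56 and 0.78 for the Mt1 genes and to between 0.76 and 0.84 for the Mt2 genes. These are the highest of 19487 values, so their size describes the search and carries no p. The r between Mt1 and Mt2 was 0.849, lower than for each of these 10 genes (lowest 0.855, Iqgap3). Of the 10, C920021L13Rik was called between the groups, at -0.53 ± 0.08 (limma adjusted p = 0.0011; not called with the endothelial or the smooth muscle and pericyte covariate, at -0.48 and -0.23), and the other 9 differed by -0.11 to 0.15 and did not pass.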

How the data were processed

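Gene expression was measured on 12 one-colour Affymetrix arrays with a biotin label, 6 per group, each from a separate mouse per the series' design text. The deposited values are log2 expression per probe set. RMA and limma are named in the submitters' processing notes without a version or a role; which arrays were normalized together and the genome build are not given in the sources used here. RMA's background correction and probe summary tend to shrink differences of dim probe sets. Values were used as deposited, without a filter. The 64 control probe sets were left out of the 45037 tested, of which 34945 have 1 gene in the platform table, 932 several and 9160 none; symbols were updated through Entrez identifiers, which matched for 34741. The highest share of identical values between any pair of arrays was 0.0666%.

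The test was that of limma (version 3.58.1, R 4.3.3; lmFit and eBayes, two-sided, no covariate), with adjustment over all 45037 probe sets, after a test on simulated data. Lists take the brightest probe set of each gene. Values per array were compared by two-sided exact permutation over 924 assignments. Correlations used 100000 permutations within groups. Named genes were all members, up to 3 genes of smallest p per pathway list, all called zinc transporters and the 5 genes most like Mt1 and Mt2 each. The members and lists were chosen with earlier results of these data known. Alternatives were normalization, covariates, the replicate block, dim and multi-gene probe sets, probe set summaries, array weights, an intensity trend and left-out arrays. The endothelial and the smooth muscle covariates were chosen after seeing the data. Array number limits the precision.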

Additional observations from a re-analysis of the deposited data

Results flagged for a closer look

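In groups of 6, a sample was singled out when its gap to the nearest other sample exceeded 0.625 of the group's range, a rule that chance meets in about 1 of 20 groups; 11 of 120 groups examined met it. Of the member genes, Mtf1 (1428979_at) was low on control IgG replicate 1, at 8.14 against 8.39 to 8.53 on the other controls. Slc39a14 (1425649_at) was high on anti-FGFR1 replicate 6, at 9.12 against 8.91 to 8.98. No probe set of Mt1, Mt2 or Mt3 met the rule.

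Anti-FGFR1 replicate 6 was also the sample singled out for Cp (10.59, with the others from 10.87 to 11.04), Cat (12.998, with the others from 13.22 to 13.33), Gart (8.71, with the others from 8.49 to 8.56) and Ajm1 (7.83, with the others from 7.75 to 7.77). Slc25a37 was high on control IgG replicate 6 (8.85), and Paics was low on control IgG replicate 4 (11.59). The 3′ minus 5′ signal was highest among controls on control IgG replicate 1 (0.221). The skeletal muscle marker mean was lowest on anti-FGFR1 replicate 5 (7.04), and the granulocyte and mast cell mean was highest on anti-FGFR1 replicate 2 (7.31).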

How the results depend on the processing

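Under the alternatives, the 17 member probe sets gave 432 values: 424 kept their side of the threshold, 5 calls were lost (Mt1 with the mean of its probe sets, and Mt1 and Mt2 with the endothelial and the smooth muscle means as covariates) and 3 were gained (Mt3), with 0 called values turned. The number of member probe sets called lower was 2 in the main comparison and 2 or 3 when an array was left out. It was 1 with the mean of the probe sets of a gene, and 0 with the endothelial or the smooth muscle and pericyte mean as a covariate, chosen after seeing the data. For Slc39a10 the endothelial covariate turned the difference to 0.012. Over all probe sets 2398 were called, 748 higher and 1650 lower, and between 1655 and 2894 with an array left out. The counts were 910 (329 higher, 581 lower) with the 3′ to 5′ covariate, 250 (177 and 73) with the endothelial covariate and 4 (2 and 2) with that of smooth muscle and pericytes. They were 1461 (926 lower) with 1 probe set per gene and 1486 (973 lower) with the mean of a gene's probe sets, where fewer features are tested, and 1564 (1052 lower) without the 2 arrays lowest in muscle markers. Apart from these smaller tables, the cause was not tested.

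Deviations of same-numbered arrays of the groups were weakly correlated (from -0.167 to 0.245 over 6 pairs). Of 12 arrays, 4 correlated best with their own number. Whether the numbers pair the mice was not tested, so a fit with the replicate number as a block is given too. With the replicate block 2250 probe sets were called and 2 member probe sets fell, and the Mt1 minus Mt2 change of 0.18 had an exact sign-flip p of 0.0312. Slc39a10 lost its call with the block (limma adjusted p = 0.0541). That Mt1 minus Mt2 change ran from 0.144 to 0.203 with an array left out. Dim probe sets, 7 of the 17, limit what could be seen of Slc39a8 and of the second Mt1 probe set.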
